A study of Mus musculus with 13 samples.

Results

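The 10 genes described here encode proteins that sit on the thick filament or in the Z-disc of skeletal muscle and that exist in forms used unequally by fast and slow fibres. They are 3 myosin-binding protein genes (Mybpc1, Mybpc2, Mybph), 3 myozenin genes (Myoz1, Myoz2, Myoz3), 2 sarcomeric alpha-actinin genes (Actn2, Actn3), and the Z-disc genes Ldb3 and Myot. They were chosen by name and role, with earlier results of these data known, from the 17924 genes of the deposited tables. All 10 were found there and all 10 passed the filter on low counts. RNA from whole muscles was sequenced in 13 libraries of mice homozygous for mdm, a deletion in the N2A region of the titin gene, of the strain B6C3Fe a/a-Ttn mdm/J. Of these, 5 were of EDL (extensor digitorum longus, a fast hindlimb muscle; mice of 38 to 42 days), 5 of psoas (a fast trunk muscle; 29 to 42 days) and 3 of soleus (a slow hindlimb muscle; 33 to 38 days). All 3 groups carry the same homozygous deletion, and wild-type muscle was not analysed here, so each comparison below is between mutant muscles. Within these muscles, Mybpc2 and Myoz1 were lower in psoas and in soleus than in EDL. The Myoz2 values of soleus lay above those of every EDL and psoas library, but neither difference passed the limits of the test used below. Of all genes tested, 11% did not overlap between soleus and EDL and 10.2% did not between soleus and psoas.

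In a sarcomere the thick filaments of myosin are held at the M-band and the thin filaments of actin are anchored at the Z-disc. The myosin-binding proteins C lie along the thick filament and modulate how myosin heads meet actin. Mybpc1 encodes the slow form, which is also found in many fast fibres, Mybpc2 the fast form, and Mybph a smaller relative called myosin-binding protein H. The alpha-actinins crosslink actin filaments of neighbouring sarcomeres in the Z-disc, Actn2 in all fibres and Actn3 in fast fibres. The myozenins, also called calsarcins, bind alpha-actinin and the phosphatase calcineurin. Myoz2 is the form of slow fibres and heart, and Myoz1 and Myoz3 are those of fast fibres. Ldb3, also known as ZASP or Cypher, encodes a PDZ and LIM domain protein that binds alpha-actinin. Myot encodes myotilin, which binds alpha-actinin, filamin and actin.

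On the mouse build GRCm38 the annotation places Mybpc1 (ENSMUSG00000020061) at chr10:88518279-88605152 on the minus strand and Mybpc2 (ENSMUSG00000038670) at chr7:44501699-44524656 on the minus strand. Mybph (ENSMUSG00000042451) lies at chr1:134193448-134201232 on the plus strand. Of the myozenins, Myoz1 (ENSMUSG00000068697) lies at chr14:20649107-20656540 and Myoz2 (ENSMUSG00000028116) at chr3:123006206-123035015, both on the minus strand. Actn2 (ENSMUSG00000052374) is at chr13:12269426-12340760 and Actn3 (ENSMUSG00000006457) at chr19:4861216-4877909, both on the minus strand. Ldb3 (ENSMUSG00000021798) is at chr14:34526603-34588682 on the minus strand. The coordinates of Myoz3 and Myot stand beside their values. All values count reads over the exons of these genes.

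RefSeq promoters (GRCm38.p6) were found for 6 of the 10 genes. The 250 bases before the RefSeq start are shown for Mybpc2, Mybpc1, Mybph and Myoz2. Mybpc2 and Mybpc1 are a pair whose counts differed in how they were spread over the muscles, and Mybph is their relative. The soleus values of Myoz2 lay above those of all other libraries, though edgeR called neither difference. Capitals mark an M-CAT element (CATTCC on either strand, the site of TEAD factors), a TATA box (TATAAA on either strand) or a MEF2 element.
Mybpc2, chr7:44524670-44524919, minus strand: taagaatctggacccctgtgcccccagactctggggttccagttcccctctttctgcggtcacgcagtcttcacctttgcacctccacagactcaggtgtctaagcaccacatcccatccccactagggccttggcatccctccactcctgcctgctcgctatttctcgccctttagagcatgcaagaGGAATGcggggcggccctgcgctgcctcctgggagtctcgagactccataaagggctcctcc
Mybpc1, chr10:88605153-88605402, minus strand: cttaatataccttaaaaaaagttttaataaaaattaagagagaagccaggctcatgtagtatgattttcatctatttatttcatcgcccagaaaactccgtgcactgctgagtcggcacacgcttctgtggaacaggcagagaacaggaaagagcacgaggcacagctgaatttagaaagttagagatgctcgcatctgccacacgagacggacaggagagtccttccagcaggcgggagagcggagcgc
Mybph, chr1:134193198-134193447, plus strand: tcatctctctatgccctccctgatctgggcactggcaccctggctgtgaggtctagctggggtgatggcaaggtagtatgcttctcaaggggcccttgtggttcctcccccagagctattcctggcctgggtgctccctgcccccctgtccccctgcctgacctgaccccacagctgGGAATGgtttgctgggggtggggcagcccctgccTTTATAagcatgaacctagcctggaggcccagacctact
Myoz2, chr3:123034988-123035237, minus strand: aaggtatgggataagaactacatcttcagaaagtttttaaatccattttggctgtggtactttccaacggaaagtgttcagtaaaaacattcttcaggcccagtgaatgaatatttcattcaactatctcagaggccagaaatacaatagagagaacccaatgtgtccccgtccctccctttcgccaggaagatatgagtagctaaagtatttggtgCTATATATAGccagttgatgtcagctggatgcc

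The Mybpc2 window held 1 M-CAT element, 62 to 57 bases before the start. Mybph held an M-CAT element 73 to 68 bases before its start and a TATA box 39 to 34 bases before it. The Mybpc1 window held none of the 3 marked motifs. The MEF2 element of Myoz2 lay 33 to 24 bases before the RefSeq start, with E-boxes (CANNTG, the site of MyoD-type factors) at 22 to 17 and 12 to 7 bases. This RefSeq start lies inside the gene span given above, which ends at 123035015. By that span both E-boxes and part of the MEF2 element lie within the gene. E-boxes also lay in the windows of Mybpc1 (87 to 82 and 57 to 52 bases), Mybpc2 (157 to 152) and Mybph (79 to 74). Of all 32851 mouse promoter windows of this length, 12.6% held an M-CAT element, 12.4% a TATA box, 2.92% a MEF2 element and 66.2% an E-box. These matches describe the letters of the windows and nothing about binding in these muscles.

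The libraries held between 9114176 and 48835209 counts, and the 10 genes together took between 0.508% and 1.63% of them. Values are normalized counts, which are counts divided by a size factor of the library, unless a level per kilobase of exon is named. Muscles were compared with edgeR's quasi-likelihood test on the counts, and a gene was called where its Benjamini-Hochberg adjusted p over 17069 genes was under 0.01 and its log2 fold change was over 1 in size. Each log2 fold change below is the first muscle named minus the second, with its standard error (SE), and intervals are 1.96 SE to either side. In whole muscle, fewer cells of a type and less RNA per cell cannot be told apart.

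Mybpc2, the fast myosin-binding protein C, had 27496, 96833, 129556, 51674 and 43075 normalized counts in EDL replicates 1 to 5. In psoas the corresponding values were 2559, 3994, 7562, 15676 and 13651, and in soleus replicates 1 to 3 they were 1181, 963 and 3179. The lowest EDL library thus lay above the highest psoas library, while the highest soleus library lay among the psoas libraries. Mybpc2 was 8.08-fold lower in psoas than in EDL (log2 fold change -3.01, SE 0.58, edgeR adjusted p = 0.0047, n = 5 and 5). It was 39.5-fold lower in soleus than in EDL (-5.30, SE 0.82, edgeR adjusted p = 0.0043, n = 3 and 5). The fitted difference of soleus from psoas was -2.29 (SE 0.69) and was not called (edgeR adjusted p = 0.177), although DESeq2 called it (adjusted p = 0.0093).

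Both Mybpc2 calls depended on single libraries. The psoas difference lost its call without EDL 3 (-2.66, edgeR adjusted p = 0.0137), without psoas 2 (-2.83, adjusted p = 0.0139) or without psoas 3 (-2.97, adjusted p = 0.0114). The soleus difference lost its call without soleus 1 (-5.08, adjusted p = 0.0335) or without soleus 2 (-5.00, adjusted p = 0.0270). The estimates themselves stayed at -2.66 or further below 0 for psoas and at -4.95 or further below 0 for soleus in the 13 fits that each left out 1 library.

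Mybpc1, the slow form of the same protein, did not follow Mybpc2. Its normalized counts were 19342, 68677, 52536, 15924 and 20330 in EDL, 31380, 24212, 31712, 32236 and 25297 in psoas, and 27371, 35815 and 20514 in soleus. The EDL libraries spanned those of both other muscles, with EDL 2 and EDL 3 well above every other library and EDL 4 below every other library. The log2 fold change was -0.30 for psoas against EDL (SE 0.38, interval -1.05 to 0.45), -0.35 for soleus against EDL (SE 0.45, interval -1.23 to 0.53) and -0.05 for soleus against psoas (SE 0.44, interval -0.92 to 0.83). No Mybpc1 difference passed the test, and differences within these intervals could not be told from none.

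Mybph had 1733, 2515, 1324, 241 and 569 normalized counts in EDL, 174, 987, 577, 456 and 486 in psoas, and 370, 481 and 248 in soleus. EDL 1, 2 and 3 were the highest of all libraries and EDL 4 was lower than every library but psoas 1. The log2 fold change was -1.26 (SE 0.53, edgeR adjusted p = 0.112) for psoas against EDL and -1.80 (SE 0.65, adjusted p = 0.177) for soleus against EDL, and neither was called. Of the exon bases of Mybph, 49.9% (1162 of 2329) also lie in exons of Adora1, an adenosine receptor gene on the opposite strand. The strand setting used in counting was not given in the sources used here, so reads of the 2 genes might not have been separated. Adora1 itself had 40.3 to 200 normalized counts in EDL, 62.3 to 124 in psoas and 75.7 to 81.9 in soleus, below Mybph in each muscle's median.

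**Figure D1:**
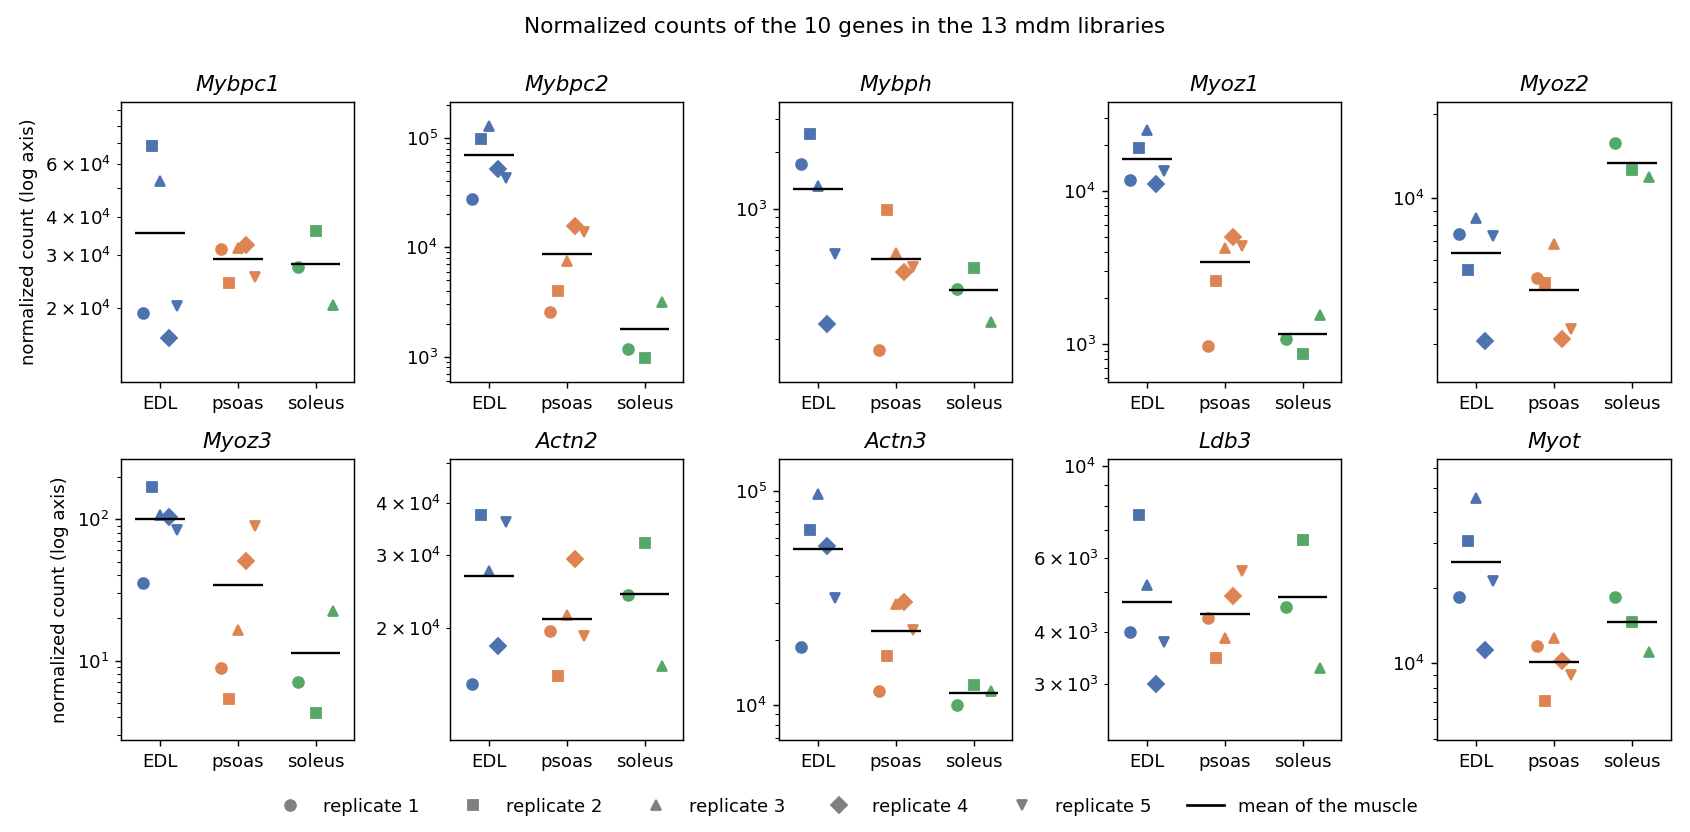
Normalized counts (log axis, with a scale of its own in each panel) of the 10 genes in EDL, psoas and soleus of mdm mice; each point is 1 library, its shape gives the replicate number, and the line is the mean of the muscle. Mybpc2 and Myoz1 have no overlap between EDL and either other muscle, and Myoz2 in soleus, from 11879 to 15755, lies above all 10 other libraries. The Myoz2 differences were not called by edgeR.

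Among the myozenins, Myoz1 had 11815, 19089, 24886, 11036 and 13514 normalized counts in EDL, 966, 2581, 4219, 4973 and 4358 in psoas, and 1078, 866 and 1544 in soleus. Every EDL library lay above every psoas and soleus library. Psoas 1, from the youngest mouse at 29 days, lay within the soleus range, and the other 4 psoas libraries lay above it. Myoz1 was 4.72-fold lower in psoas than in EDL (log2 fold change -2.24, SE 0.40, edgeR adjusted p = 0.0032). It was 13.8-fold lower in soleus than in EDL (-3.79, SE 0.53, adjusted p = 0.0019). The first call was kept in each of the 13 fits without 1 library, with a highest adjusted p of 0.0099. The second was lost without soleus 1 (-3.74, adjusted p = 0.0221) or without soleus 2 (-3.61, adjusted p = 0.0181). Soleus against psoas gave -1.55 (SE 0.47, adjusted p = 0.173) and was not called.

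Myoz2, the slow and cardiac myozenin, ran the other way. It had 7430, 5501, 8509, 3071 and 7318 normalized counts in EDL, 5184, 4946, 6825, 3122 and 3382 in psoas, and 15755, 12597 and 11879 in soleus. The 3 soleus libraries stood above all 10 libraries of the fast muscles, which overlapped each other. The estimates were 2.87-fold higher in soleus than in psoas (log2 fold change 1.52, SE 0.32, edgeR adjusted p = 0.0489) and 2.11-fold higher in soleus than in EDL (1.08, SE 0.32, adjusted p = 0.0907), and neither was called by the rule used here. DESeq2 called the difference from psoas (1.51, SE 0.34, adjusted p = 0.0011) but not that from EDL (adjusted p = 0.0302). Psoas against EDL gave -0.44 (SE 0.29, adjusted p = 0.299).

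Myoz3 (ENSMUSG00000049173, chr18:60573750-60591788, minus strand) was by far the least abundant of the 10 genes, with raw counts from 6 to 266 per library. Its normalized counts were 35.3, 170, 108, 103 and 83.9 in EDL, 8.85, 5.34, 16.5, 50.4 and 88.7 in psoas, and 7.03, 4.28 and 22.4 in soleus. All soleus libraries lay below all EDL libraries, and psoas spread over both ranges, with psoas 4 and 5 among EDL and psoas 1, 2 and 3 among soleus. The log2 fold change was -1.58 (SE 0.68, edgeR adjusted p = 0.117) for psoas against EDL and -3.32 (SE 0.93, adjusted p = 0.0688) for soleus against EDL. DESeq2 called the latter (adjusted p = 0.0013). With so few reads in psoas 2 and soleus 2, counting error adds to the spread between replicates. Of the sequence windows of 75 bases in the Myoz3 transcript, 1.37% (46 of 3347) also occurred in transcripts of other genes, whereas the other 9 genes shared none.

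Actn3, the alpha-actinin of fast fibres, had 18528, 65689, 96775, 55063 and 31397 normalized counts in EDL, 11529, 16933, 29705, 30366 and 22348 in psoas, and 9939, 12319 and 11583 in soleus. EDL and soleus did not overlap, and EDL and psoas overlapped only through EDL 1, which lay within the psoas range. The log2 fold change was -1.28 (SE 0.40, edgeR adjusted p = 0.0393) for psoas against EDL and -2.24 (SE 0.50, adjusted p = 0.0238) for soleus against EDL, with neither called. DESeq2 called both, with adjusted p = 0.0058 and adjusted p = 2.55e-05. Actn2, the form of all fibres, had 14691, 37434, 27456, 18116 and 36066 in EDL, 19765, 15363, 21530, 29327 and 19199 in psoas, and 24053, 32090 and 16241 in soleus. The 3 ranges overlapped throughout. Its log2 fold changes were -0.35 (SE 0.30, interval -0.95 to 0.24) for psoas against EDL, -0.15 (SE 0.35, interval -0.84 to 0.54) for soleus against EDL and 0.21 (SE 0.35, interval -0.48 to 0.89) for soleus against psoas.

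The 2 remaining Z-disc genes differed from each other in spread. Ldb3 ranged from 3007 to 7603 normalized counts in EDL (median 4003), from 3474 to 5583 in psoas (median 4332) and from 3282 to 6637 in soleus (median 4596). Its log2 fold changes, -0.10 (SE 0.27, interval -0.63 to 0.44) for psoas against EDL and 0.04 (SE 0.31, interval -0.58 to 0.66) for soleus against EDL, were the closest to 0 of the 10 genes in these comparisons. Myot (ENSMUSG00000024471, chr18:44334074-44355724, plus strand) had 18345, 30611, 45495, 11286 and 21193 in EDL, 11682, 7060, 12606, 10183 and 8975 in psoas, and 18313, 14639 and 11042 in soleus. Only EDL 4 lay within the psoas range, and the other 4 EDL libraries lay above it. Myot was estimated 2.53-fold lower in psoas than in EDL (log2 fold change -1.34, SE 0.34, edgeR adjusted p = 0.0152) and was not called. DESeq2 called it (-1.36, adjusted p = 0.0006), and so did edgeR without EDL 4 (-1.53, adjusted p = 0.0059). For soleus the values were -0.79 (SE 0.39, adjusted p = 0.368) against EDL and 0.54 (SE 0.38, adjusted p = 0.562) against psoas.

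**Figure D2:**
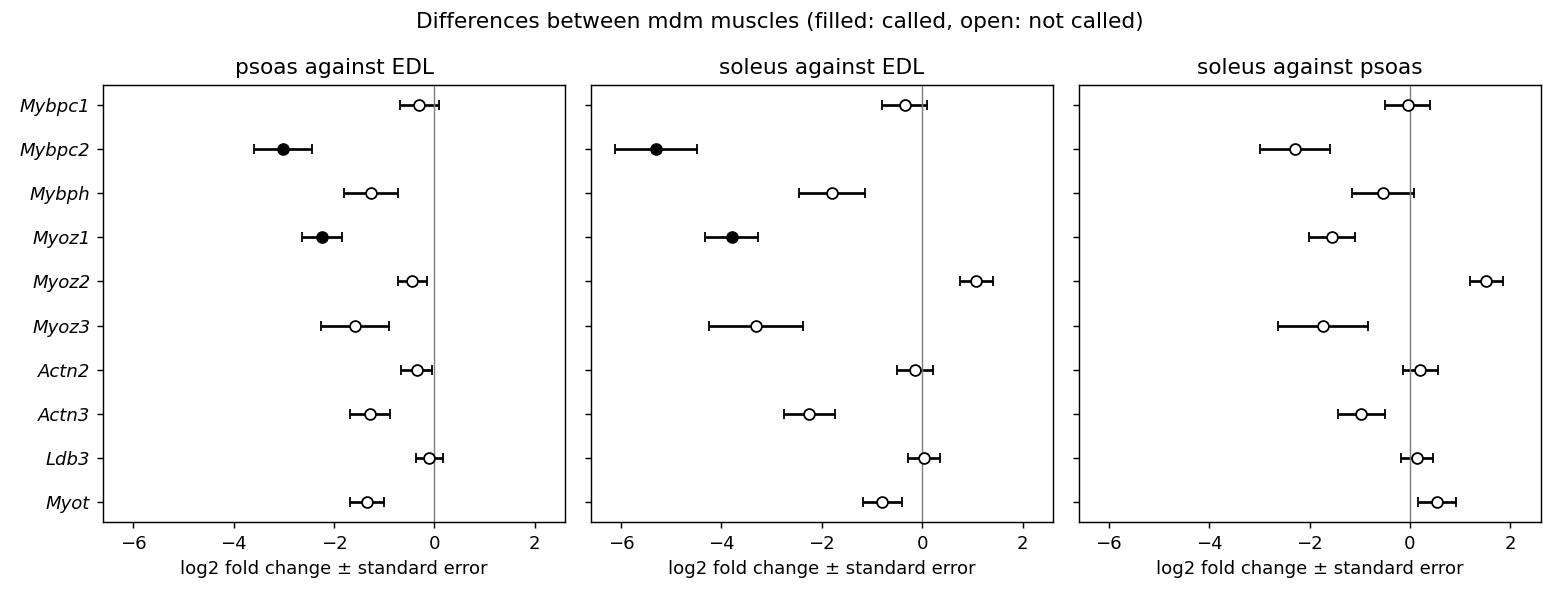
Log2 fold change (horizontal axis) of each of the 10 genes for psoas against EDL, soleus against EDL and soleus against psoas; points are edgeR estimates, bars are 1 standard error to either side, and filled points passed both limits of the call. Mybpc2 and Myoz1 are the filled points in the first 2 panels, and no point is filled in the third.

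Counted together, 2 of the 10 genes (Mybpc2 and Myoz1) were called lower in psoas than in EDL, where 2.5% of all genes tested were called lower, and 0 were called higher, where 2.43% were. All 10 estimates were below 0 with a median log2 fold change of -1.27, against 0.02 over all genes tested. General and fast fibre markers also had medians below 0 in this comparison, as given below. For soleus against EDL the same 2 genes were called lower (background 0.445%) and 0 higher (background 0.533%). Of the 10 estimates 8 were below 0, and their median was -1.30, against -0.03 over all genes. A median below 0 was not particular to the 10 genes here either. It was -3.56 for the fast fibre markers and -0.62 for the general fibre markers described below, and 3.63 for the slow ones. For soleus against psoas edgeR called 0 of the 10 (background 0.0703% higher and 0.00586% lower). Of the 10, 3 had an unadjusted edgeR p under 0.05, and DESeq2 called 2, against 171 over the whole table. Among all 17069 genes tested, 2163 had an unadjusted p under 0.05 for soleus against psoas. For psoas against EDL it was 5679 genes and for soleus against EDL 2584. These comparisons share libraries, so the EDL values enter 2 of them. The numbers of genes called over the whole table were 841 for psoas against EDL (1267 with the replicate number as a block), 167 for soleus against EDL and 13 for soleus against psoas. Leaving out 1 library moved these numbers to 317 to 802, 19 to 182 and 3 to 21, with the lowest reached without EDL 3, without soleus 1, and without soleus 1 or soleus 2, and the number called among the 10 genes to 1 to 3, 0 to 2 and 0 to 0. DESeq2 called 1586, 633 and 171 genes, and for soleus against EDL it turned the balance from 91 higher and 76 lower to 270 higher and 363 lower, so the background shares rest on the edgeR fit of all libraries.

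The ranges of 2 of the 10 genes did not overlap between psoas and EDL (background 13%). Between soleus and EDL it was 5 of 10 (Mybpc2, Myoz1, Myoz2, Myoz3 and Actn3; background 11%), and between soleus and psoas 1 of 10 (Myoz2; background 10.2%). Of these 5, Mybpc2, Myoz1, Myoz3 and Actn3 had the lower values in soleus and are forms that fast fibres use, and Myoz2 had the higher values and is the slow form. Mybpc1, Mybph, Actn2, Ldb3 and Myot overlapped between every pair of muscles.

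Ratios within a library do not depend on its size factor, and they were formed from counts per kilobase of exon so that the 2 genes of a pair were on 1 scale. The ratio of Mybpc2 to Mybpc1 was 1.77 to 4.07 in EDL (median 2.66), 0.102 to 0.677 in psoas (median 0.299) and 0.0337 to 0.194 in soleus (median 0.0541). Mybpc2 was the more abundant of the pair in 5 of 5 EDL libraries and in 0 of the 8 others. The psoas ratio lay between those of EDL and soleus and overlapped with soleus through psoas 1.

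The ratio of Myoz1 to Myoz2 was 2.88 to 6.50 in EDL (median 5.29), 0.337 to 2.88 in psoas (median 1.12) and 0.124 to 0.235 in soleus (median 0.124). Here psoas libraries stood on both sides of parity, with Myoz1 the more abundant in 3 of 5, and all 3 soleus ratios were below every psoas ratio. Psoas 1 had the lowest psoas ratio and psoas 4 the highest. The ratio of Actn3 to Actn2 was 1.14 to 4.61 in EDL (median 2.30), 0.763 to 1.80 in psoas (median 1.44) and 0.502 to 0.933 in soleus (median 0.541). Actn3 exceeded Actn2 in 5 of 5 EDL, 4 of 5 psoas and 0 of 3 soleus libraries. Per kilobase of the longest transcript it did so in 4 of 5 EDL libraries, with a lowest log2 ratio of -0.14. This pair therefore shifted the least from EDL to soleus of the 3 pairs, by mean log2 ratios of 1.26 in EDL and -0.66 in soleus, against 1.34 and -3.82 for the myosin-binding pair and 2.20 and -2.70 for the myozenins.

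**Figure D3:**
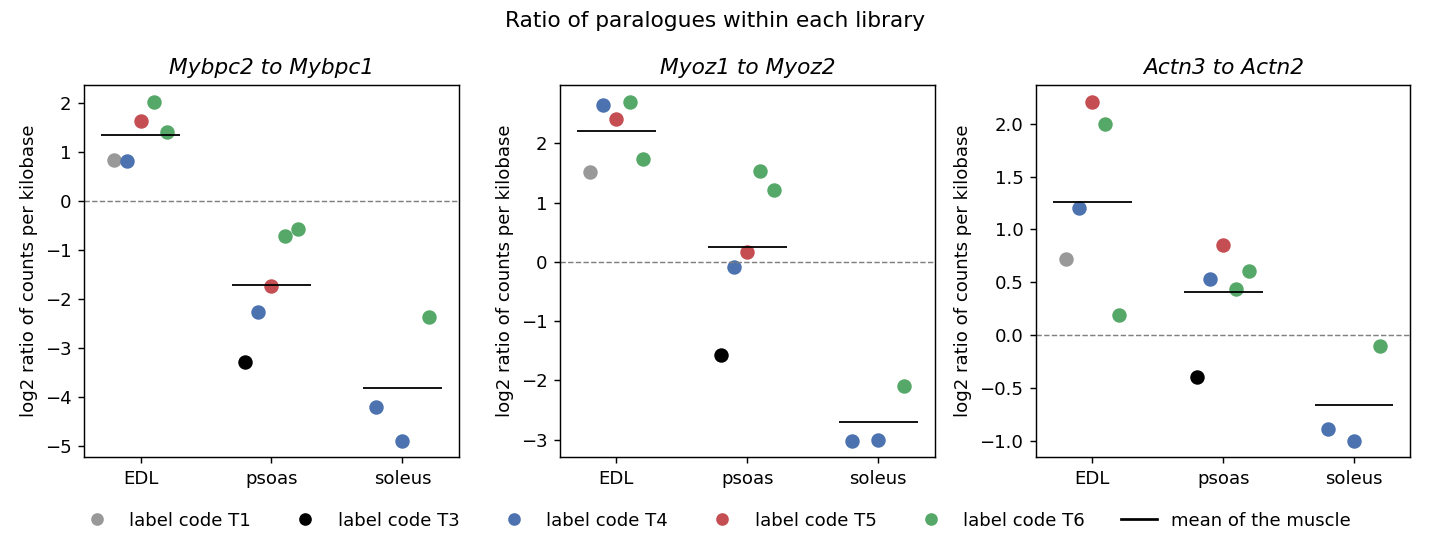
Log2 ratio of counts per kilobase of exon for Mybpc2 to Mybpc1, Myoz1 to Myoz2 and Actn3 to Actn2 in each library of the 3 muscles; colours give the code in the sample labels, the solid lines are means and the dashed line marks equal levels. All 3 soleus libraries are below equality in each pair and all 5 EDL libraries are above it, of which 1 falls below it for Actn3 to Actn2 when the longest transcript is used.

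As shares of each family, Mybpc2 made up a median of 71.6% of the myosin-binding total in EDL, 22.4% in psoas and 5.0% in soleus, and Mybpc1 made up 26.9%, 74.9% and 92.6%. Mybph never exceeded 6.16% of that total. Myoz1 made up 83.9%, 52.7% and 11.1% of the myozenins and Myoz2 15.9%, 47.2% and 88.9%, in the same order of muscles. Myoz3 stayed between 0.0301% and 0.778% of the myozenin total in all libraries. The totals themselves also differed. Summed normalized counts per kilobase of the myozenins were 6760 to 15670.1 in EDL, 2028 to 4228 in psoas and 4139 to 5174 in soleus, so the EDL totals lay above all others, and those of psoas and soleus overlapped.

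**Figure D4:**
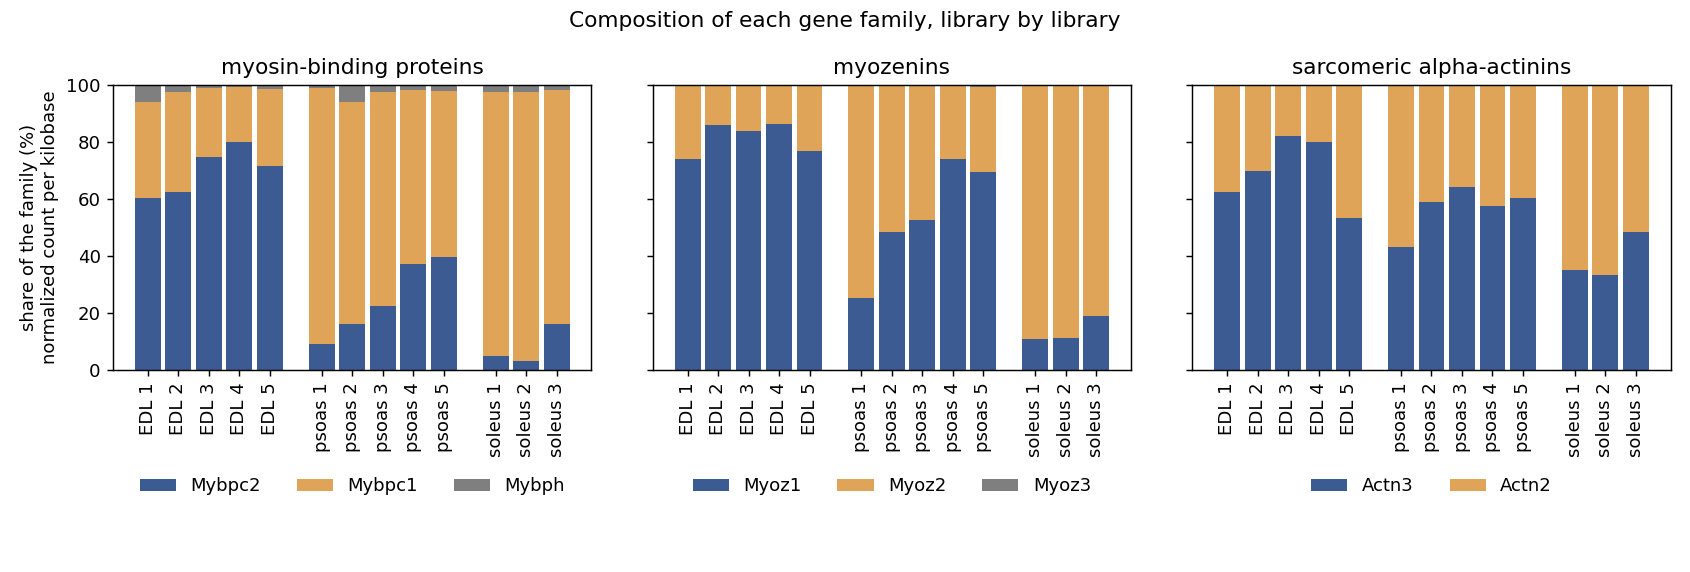
Stacked bars give the share (%) of each gene in the summed normalized count per kilobase of its family, 1 bar per library, for the myosin-binding proteins, the myozenins and the sarcomeric alpha-actinins. In soleus Mybpc1 and Myoz2 take 82.1% or more and 80.8% or more of their families, and in EDL Mybpc2 and Myoz1 take 60.3% or more and 74.1% or more.

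Ordered by mean level per kilobase, the EDL libraries had Mybpc2 first with 19309.5 ± 11695 normalized counts per kilobase (SD, n = 5), followed by Actn3, Myot, Myoz1, Mybpc1, Actn2, Myoz2, Ldb3, Mybph and Myoz3. The ranges of the first 6 overlapped each with the next, and a gap without overlap separated Actn2 from Myoz2 and Mybph from Myoz3. In psoas the order began with Actn3 at 7644 ± 2804 (SD, n = 5), Mybpc1, Actn2 and Myot, and Mybpc2 followed Myot with 2406 ± 1605. There Ldb3 was separated from Mybph and Mybph from Myoz3. In soleus the order began with Myot at 6639 ± 1646 (SD, n = 3), Actn2 and Mybpc1, whose ranges overlapped, and Myoz2 and Actn3 followed at nearly equal means of 3918 ± 602 and 3889 ± 420. Mybpc2 came after Myoz1 there at 491 ± 338, with gaps before Ldb3, before Mybph and before Myoz3. Myoz3 was last in each muscle, at 29.1 ± 14.1 in EDL, 9.88 ± 10.3 in psoas and 3.27 ± 2.83 in soleus. Dividing by the longest transcript in place of all exons exchanged Myot and Myoz1 in EDL and Mybpc2 and Myoz1 in psoas, and placed Actn2 and Mybpc1 before Myot in soleus.

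**Figure D5:**
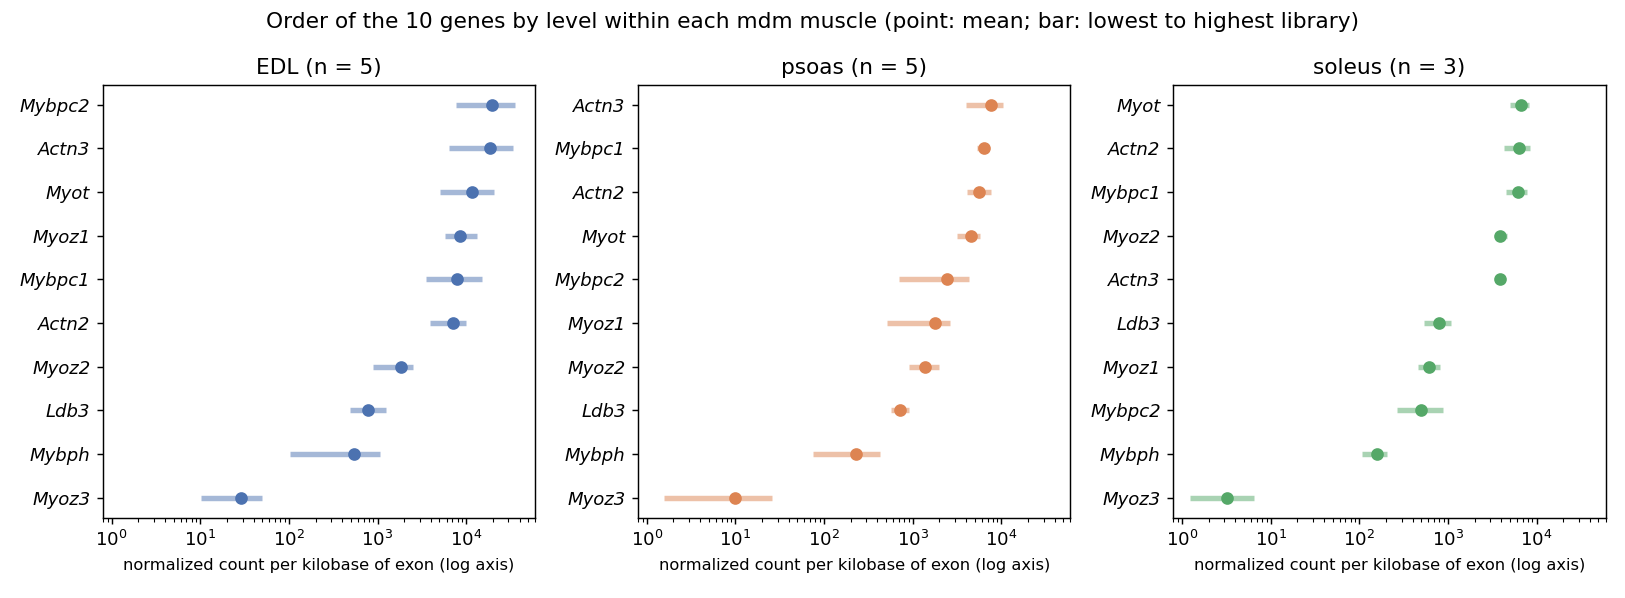
Mean normalized count per kilobase of exon (log axis) of the 10 genes in each muscle, ordered within the muscle; points are means and bars run from the lowest to the highest library. Mybpc2 is first in EDL but lies behind Myot in psoas and behind Myoz1 in soleus, and Myoz3 is last in all 3.

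Replicates of a muscle varied most for the scarce genes and for some abundant ones. In psoas the coefficient of variation was 104% for Myoz3 and 66.7% for Mybpc2 but 13.4% for Mybpc1. In EDL it was 71.3% for Mybph and 67.3% for Mybpc1, and in soleus it was 10.8% for Actn3 and 15.4% for Myoz2. EDL 2 or EDL 3 held the highest EDL value of each of the 10 genes, and EDL 4 held the lowest of Mybpc1, Mybph, Myoz1, Myoz2, Ldb3 and Myot. The EDL libraries also differed in depth, with 48835209 counts for EDL 1, 33932248 for EDL 2, 12059090 for EDL 3, 16986976 for EDL 4 and 14343191 for EDL 5. The highest values thus lay in a deep library and in the shallowest.

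The sample labels carry a code (T1 to T6) whose meaning is not given in the sources used here, and 3 codes held both EDL and psoas libraries. Code T4 held 1 EDL and 1 psoas library, T5 also 1 and 1, and T6 2 and 2. Within codes, the log2 difference of Mybpc2 between psoas and EDL was -1.68 to -4.63 and below 0 in 3 of 3 codes. Myoz1 gave -1.38 to -2.92 in 3 of 3, Actn3 -0.66 to -1.99 in 3 of 3, and Myot -0.68 to -2.15 in 3 of 3. Myoz2 (-0.19 to -0.53), Myoz3 (-0.46 to -4.69) and Actn2 (-0.10 to -1.32) were also below 0 in 3 of 3, so a shared sign was not particular to the called genes. Mybpc1 gave -1.54 to 0.68 and changed sign between codes, as did Ldb3 with -1.16 to 0.64 and Mybph with -1.38 to 0.36. For soleus against EDL 2 codes could be compared, T4 with 2 soleus and 1 EDL library and T6 with 1 and 2. There Mybpc2 gave -6.52 and -3.88, Myoz1 -4.32 and -2.97, and Actn3 -2.59 and -1.83. Mybph, Myoz3, Actn2, Ldb3 and Myot were below 0 in 2 of 2 codes as well. Myoz2 gave 1.34 in both codes against EDL, and 1.52 and 1.87 against psoas. With the code as a block in the edgeR fit, the calls among the 10 genes were those of Mybpc2 (-3.18, adjusted p = 0.0039) and Myoz1 (-2.10, adjusted p = 0.0019) for psoas against EDL, and of Mybpc2 (-5.42, adjusted p = 0.0028) and Myoz1 (-3.70, adjusted p = 0.0009) for soleus against EDL. Between EDL and psoas libraries of the same replicate number, Mybpc2, Myoz1, Actn3 and Myot were lower in psoas for 5 of 5 numbers, and Mybpc1 and Ldb3 for 2 of 5. Numbers 2 to 5 are the libraries of codes T4, T5 and T6 again, so this is not a separate check. The libraries of number 1 came from mice of different ages.

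Across the 13 libraries the log2 CPM (counts scaled to the library size) of Mybpc2 and Myoz1 had a Pearson r of 0.98, the highest of the 45 pairs among the 10 genes. Mybpc2 with Myoz3 (0.92), Mybpc2 with Actn3 (0.91) and Myoz1 with Actn3 (0.89) came next. Mybpc1 with Ldb3 gave 0.82, and Myoz2 was negative with Mybpc2 (-0.45), Actn3 (-0.41), Myoz1 (-0.36) and Myoz3 (-0.47). The libraries share their muscle of origin and differ in depth, so these values describe the pattern over muscles as much as that within them.

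Of 3712 well-expressed genes, those closest to Mybpc2 over the 13 libraries were Tnni2 (r = 0.98), which encodes fast troponin I, then Myoz1 and Shisa2 (r = 0.97). Closest to Myoz1 were Shisa2 (r = 0.99), Mybpc2 and Eno3 (r = 0.98), the muscle enolase. Closest to Myoz3 were Pvalb (r = 0.94), the parvalbumin of fast fibres, Mybpc2 and Gpd2 (r = 0.91). For Actn3 they were Atp2a1 (r = 0.94), the fast calcium pump, Ptp4a2 (r = 0.92) and Cacna2d1 (r = 0.92), a calcium channel subunit. For Myoz2 they were Nuak1 (r = 0.91), Myl2 (r = 0.91), the slow and cardiac regulatory light chain, and Myh6 (r = 0.91), a cardiac myosin heavy chain.

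The genes close to Mybpc1 included Zfp106 (r = 0.94) and Ppp2r3a (r = 0.91). Actn2 was closest to Nfe2l1 (r = 0.90), Kpna6 (r = 0.90) and Fyco1 (r = 0.86). Ldb3 was closest to Hspb7 (r = 0.86), a small heat shock protein gene, Acacb (r = 0.85) and Kpna4 (r = 0.85). Myot was closest to Klhl7 (r = 0.95), Kcmf1 (r = 0.95) and Fxyd1 (r = 0.95), and Mybph to Tmcc1 (r = 0.87), Pde4d (r = 0.84) and Gaa (r = 0.83).

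Of 23 other Z-disc genes, all measured, 2 had a call above and 1 below EDL in psoas. Those above were Actn1 (log2 fold change 1.40, SE 0.22, edgeR adjusted p = 0.0018) and Actn4 (1.36, SE 0.23, adjusted p = 0.0028), the non-muscle alpha-actinins, in contrast to the estimates below 0 of Actn2 and Actn3. The one below was Tcap (-1.75, SE 0.38, adjusted p = 0.0088), which encodes the titin cap protein telethonin. The median of this list was 0.03, against -1.27 for the 10 genes. A median below 0 in psoas was not particular to the 10 genes. It was -0.77 for the other A-band and M-band genes, -1.30 for the general fibre markers and -1.68 for the fast markers described below. Slow fibre markers had a median of -0.11 and developing fibre markers 0.95. In the soleus comparisons edgeR called 0 of the 23, with an unadjusted p under 0.05 for 9 against EDL and 5 against psoas, and DESeq2 called 1 and 0.

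Of 11 other A-band and M-band genes 9 were measured. In psoas against EDL 0 were called higher and 2 lower, Trim54 (-1.36, SE 0.22, edgeR adjusted p = 0.0023), a ubiquitin ligase of the sarcomere, and Smpx (-1.19, SE 0.23, adjusted p = 0.0052). In soleus against EDL 1 was called lower, Myom2 (-2.72, SE 0.45, adjusted p = 0.0056), which encodes the M-band protein M-protein, and 0 higher. In soleus against psoas edgeR called 0 of the 9, with an unadjusted p under 0.05 for 4, and DESeq2 called 1. Of the 7 genes of calcineurin, its regulator Rcan1 and the NFAT factors, a pathway that the myozenins bind, edgeR called 0 in each comparison, with an unadjusted p under 0.05 for 3, 3 and 1 in the order used above, and DESeq2 called 0, 2 and 0.

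Markers of muscle fibres were summed to check the labelled tissue. None of the 5 general fibre markers (Acta1, Ckm, Tnnc2, Mb, Ttn) was at 0 in a muscle, and their summed normalized counts were 1047921 to 1815019 in EDL, 742865 to 1364587 in psoas and 732993 to 1047605 in soleus. Ckm, muscle creatine kinase, was called lower in psoas than in EDL (log2 fold change -1.67, SE 0.30, edgeR adjusted p = 0.0036), less far than Mybpc2 and Myoz1. In soleus Tnnc2, fast troponin C, was called lower than in EDL (-3.73, SE 0.63, edgeR adjusted p = 0.0066), about as far as Myoz1. The 6 fast markers summed to 906248 to 1995089 in EDL, 251768 to 605885 in psoas and 131727 to 160584 in soleus, so the 3 muscles did not overlap. Of them 3 were called lower in psoas (Tnnt3, Myh4, Tnni2) and 4 lower in soleus (Tnnt3, Myh1, Tnni2, Myh4) than in EDL. The log2 fold changes of the 6 fast markers against EDL ran from -4.18 to -0.46 in psoas and from -5.44 to -1.49 in soleus. The values of Mybpc2 and Myoz1 lay within these ranges. The 6 slow markers summed to 264607 to 320242 in soleus, against 6032 to 41633 in EDL and 6316 to 41829 in psoas, and 2 of them (Tnni1, Myl3) were called higher in soleus than in EDL.

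Markers of other cells also differed between the muscles. The 4 adipocyte markers summed to 52155 to 81967 in soleus, 9001 to 27596 in EDL and 14017 to 36317 in psoas, and Cfd and Adipoq were called higher in soleus than in EDL. In psoas against EDL 3 of 3 mesothelial markers (Upk3b, Wt1, Msln) and 1 of 3 smooth muscle markers (Acta2) were called higher. The mesothelial markers summed to 169 to 836 in psoas and 25.7 to 95.4 in EDL. Of the 6 developing fibre markers, Myl4 was called higher in psoas than in EDL, and Myh8 lower in soleus than in either other muscle. Of the fibroblast, macrophage and endothelial markers edgeR called 0, with an unadjusted p under 0.05 for 0 or 1 of each list in each comparison, and DESeq2 called 0. Of the cardiac markers Myh6 was tested, and edgeR called it in 0 comparisons while DESeq2 called it higher in soleus than in EDL and in psoas. The part of these other cells in the differences of the 10 genes was not tested.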

How the data were processed

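RNA of whole mdm muscles was sequenced by the authors with a stranded total RNA kit as paired reads of 75 bases. Per the labels' processing notes, the tools were Trimmomatic 0.32 and TopHat2 2.1.1, with the build GRCm38.p4. Per the study's methods, quality trimming was applied where base quality fell short (EDL 3, EDL 4, psoas 1 and soleus 3 here). The other libraries were aligned untrimmed, so trimming differed between libraries of a muscle, and its part in the values was not tested. The study also lists an RNA integrity number per library. The highest psoas number equalled the lowest EDL number, and those of soleus overlapped both. The part of RNA integrity in the values was not tested. The deposited files hold raw counts per gene and normalized counts (signal), which the authors made by dividing the counts by DESeq2 size factors (0.502 to 2.42) after removing genes of low count. The strand setting and the treatment of reads that overlap several genes are not given in the sources used here. Of 17924 genes, 17833 had a symbol. The labels number the replicates but do not tie libraries to animals, so p-values measure the spread between libraries.

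The counts of all 13 libraries were fitted with edgeR 4.0.16 (R 4.3.3, TMM scaling, muscle as the factor) over the 17069 genes that reached 10 normalized counts in 3 or more libraries. A call needed an adjusted p under 0.01 and a log2 fold change over 1 in size. All 10 genes are named in each comparison. Of every other list the called genes with the lowest adjusted p (up to 4) are named, and for each of the 10 genes the 3 with the highest Pearson r of log2 CPM among genes of mean log2 CPM of at least 5. Levels per kilobase divide normalized counts by all exon bases of GENCODE M21. The 10 genes and all lists were chosen with earlier results of these data known. Protein sequences were not used here. One neighbouring gene and 1 marker list are not reported here.

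The edgeR fits with and without the label code, DESeq2 and limma were tested on simulated counts with known changes between psoas and EDL. There the spread between libraries was capped and libraries were drawn independently. The simulation therefore does not cover the soleus comparisons or the most variable genes. Alternatives were RLE scaling, DESeq2 1.42.0, no filter, limma 3.58.1 on log2 of the normalized count plus 1, the label code or the replicate number as a block, fits of only the 2 muscles compared, and leaving out each library. EDL and psoas libraries of the same replicate number deviated together from their group means (r from 0.289 to 0.407 over 5 numbers). On that ground the number was used as a block. The labels give replicate 1 of the 2 muscles different ages (38 and 29 days), so the number does not mark 1 animal there. Replicate 1 also had the highest r, 0.407, so this r does not show that libraries of a number came from 1 animal.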

Additional observations from a re-analysis of the deposited data

How the results depend on the processing

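For psoas against EDL the number of genes called, 841, was 1586 with DESeq2, 557 with only the 2 muscles in the fit and 1267 with the replicate number as a block, and 317 to 802 when 1 library was left out. For soleus against EDL it went from 167 to 633 with DESeq2 (270 higher and 363 lower, against 91 and 76 in edgeR), to 86 with the label code as a block (31 and 55), and to between 19 and 182 without 1 library. For soleus against psoas it went from 13 to 171 with DESeq2 (95 and 76, against 12 and 1), 6 with the label code (4 and 2), 20 with limma (15 and 5), 8 with only the 2 muscles, 1 with the replicate block (0 and 1), and 3 to 21 without 1 library. Of the 10 genes, DESeq2 called 4, 4 and 2 in these comparisons, against 2, 2 and 0, and the fits without 1 library called 1 to 3, 0 to 2 and 0 to 0. For psoas against EDL the replicate block changed no call among the 10 genes. In soleus the number marks no pair, since no same-numbered EDL or psoas library came from a mouse of the same age. Same-numbered libraries correlated from -0.16 to 0.42 with EDL and from -0.30 to 0.16 with psoas. The block in soleus added Mybph against EDL (edgeR adjusted p = 0.0036).

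Signs turned for 3 of the 10 genes, each with an estimate near 0 and none called. Ldb3 of soleus turned against EDL with the label code (-0.18) and the replicate block (-0.22), and against psoas with the label code (-0.13). Without 1 library, Mybpc1 ranged from -0.49 to 0.098 for psoas against EDL, from -0.56 to 0.052 for soleus against EDL and from -0.27 to 0.13 for soleus against psoas. Actn2 ranged from -0.41 to 0.074 and from -0.059 to 0.42 for soleus against EDL and psoas. Ldb3 ranged from -0.23 to 0.15, from -0.26 to 0.29 and from -0.17 to 0.35 in the 3 comparisons. EDL 2, soleus 2 or soleus 3 decided most of these signs, and EDL 1, EDL 4 and EDL 5 that of Ldb3 in soleus against EDL. The cause was not tested. The median log2 fold change of all genes stayed within 0.1 of 0 under each setting. Low counts limit Myoz3, with as few as 6 reads, and library number limits soleus, with 3 libraries.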
